A study of Homo sapiens with 12 samples.

Results

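The MYC, MAX and MXD network is a set of transcription factors that pair through a shared helix-loop-helix and leucine zipper region and bind the same DNA hexamer, the E-box CACGTG. It was taken here as 10 named genes (MYC, MAX, MXD1, MXD3, MXD4, MXI1, MNT, MGA, MLX and MLXIP), each of which stands on 1 row of both deposited tables, among 23617 gene symbols measured in Granta-519 and 23615 in JeKo-1. Cyclin D1 was silenced in 2 human lines of mantle cell lymphoma, a malignancy of B cells in which a translocation typically switches on the cyclin D1 gene CCND1. The 4 groups were Granta-519 with a control shRNA (shCtrl), Granta-519 with an shRNA against cyclin D1 (shCycD1), and the same pair in JeKo-1, with 3 libraries each, which the series design calls biological replicates. In every group the shRNA was delivered by lentivirus and cells were selected with puromycin, so the control cells carry a lentivirus and the selection too. The sources used here do not name the shRNA sequences or the time after infection. Each library was made from the RNA of a whole culture, so a different mix of cells and a different amount of RNA per cell cannot be told apart.

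MYC activates genes of growth, ribosome production and metabolism when it is paired with MAX, which is the obligate partner of most of the network. MXD1, MXD3, MXD4 and MXI1 also pair with MAX, occupy the same E-boxes and repress through SIN3 and histone deacetylases, and MNT and MGA are larger MAX partners that also repress. MXD proteins are known for their association with differentiation and exit from the cell cycle. MLX is a second hub beside MAX, and MLXIP (MondoA) is its glucose-sensing partner.

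The E-box in the network's own promoters is shown first. Among members with the motif, MXD4 and MNT rose in both lines, and MLX was called lower in JeKo-1 alone. The part of the motif in these changes was not tested. RefSeq promoter windows (build GRCh38.p14, 250 bases before to 50 after a start site) were matched for 9 of the 10 genes, 14 windows in all. No window was matched for MYC, so its promoter was not searched for any motif. The hexamer CACGTG, which reads the same on both strands, was present in 3 of the 14 windows, against 7.26% of 35116 windows of all genes. These were the only windows of MXD4, MNT and MLX. The 250 bases upstream of each start are printed below, 5′ to 3′ on the gene's strand, with the E-box in capitals. MXD4 lies on chr4:2262110-2262359, minus strand, with the motif beginning 238 bases before the start. MNT lies on chr17:2401061-2401310, minus strand, with the motif beginning 193 bases before the start. MLX lies on chr17:42566850-42567099, plus strand, with the motif beginning 50 bases before the start.
MXD4: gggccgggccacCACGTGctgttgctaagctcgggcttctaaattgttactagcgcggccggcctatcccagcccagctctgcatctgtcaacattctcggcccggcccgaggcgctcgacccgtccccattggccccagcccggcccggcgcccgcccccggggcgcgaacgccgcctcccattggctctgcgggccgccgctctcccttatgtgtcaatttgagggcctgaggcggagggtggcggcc
MNT: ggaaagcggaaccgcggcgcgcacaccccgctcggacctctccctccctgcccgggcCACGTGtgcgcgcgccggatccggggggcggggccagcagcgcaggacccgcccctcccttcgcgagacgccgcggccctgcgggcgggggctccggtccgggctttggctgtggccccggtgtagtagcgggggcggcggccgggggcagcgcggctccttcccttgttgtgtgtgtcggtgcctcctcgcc
MLX: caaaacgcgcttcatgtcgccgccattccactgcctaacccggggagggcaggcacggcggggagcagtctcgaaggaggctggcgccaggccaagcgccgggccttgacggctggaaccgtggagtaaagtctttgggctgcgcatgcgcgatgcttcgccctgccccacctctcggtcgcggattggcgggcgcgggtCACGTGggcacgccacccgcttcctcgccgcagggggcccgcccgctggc
The forkhead motif GTAAACA, searched on both strands, was found in 2 of the 3 MXI1 windows and in no other member's window, against 3.42% of all windows. The E2F motif TTTGGCGC was found in 1 MGA window (0.652% of all windows), and TTTCGCGC in none of the 14 (0.515%). These matches describe letters in the windows and are not measured binding sites.

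CCND1, the gene targeted, stood at 924, 1044 and 874 RPKM in the Granta-519 controls and at 213, 298 and 292 after silencing. In JeKo-1 it stood at 395, 330 and 315 against 65.4, 64.8 and 67.4. It was lower in every silenced library, and its log2 change was -1.83 ± 0.14 (SE) in Granta-519 and -2.38 ± 0.09 in JeKo-1 (limma, Benjamini-Hochberg adjusted p = 0.000257 and 1.96e-06). Levels are given as RPKM, read numbers scaled to gene length and library depth. Each change is a difference of log2(RPKM + 0.5), so that changes of weakly expressed genes come out too small. In Granta-519 the spacing of low values gave a depth of about 30107116 to 40338013 reads per library, while that of the JeKo-1 libraries is unknown. The B-cell markers MS4A1, CD79A, CD79B and PAX5 and the mantle cell marker SOX11 were at 1 RPKM or more in both lines, and CD5 was below it in Granta-519. Of the markers of other cells, 0 of 9 T and NK, 3 of 7 myeloid and 3 of 10 epithelial, fibroblast and kidney genes reached 1 RPKM in Granta-519, and 2, 2 and 1 did so in JeKo-1. Their summed levels in Granta-519 were 1.17 to 1.54 RPKM in shCtrl and 1.30 to 1.52 in shCycD1 for T and NK genes, 58.9 to 65.7 and 55.4 to 60.6 for myeloid genes, and 13.4 to 17.1 and 16.8 to 19.4 for the third list. In JeKo-1 they were 3.74 to 4.41 and 5.24 to 5.35, 4.72 to 5.37 and 3.996 to 5.19, and 2.28 to 2.85 and 2.46 to 3.28 RPKM. The myeloid gene MPO was at 0 in every library of both lines, and KRT19 and DCN were at 0 in JeKo-1. Other genes of these lists were expressed. In Granta-519 the myeloid gene CSF1R stood at 46.8 RPKM in shCtrl and 41.9 in shCycD1, and CD68 at 13.1 and 13.4. ITGAM, KRT18, COL1A1 and PAX8 also reached 1 RPKM there, and CD3G, CD7, LYZ, CD68 and KRT8 did so in JeKo-1. The values of the lines rest on different gene lengths, so the counts at 1 RPKM and the sums are not to be compared between the lines. In Granta-519 only the shift of a sum between the groups can be read. The part of these markers in the network's changes was not tested.

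Of the 10 network genes, all of which passed the filter on low values in both lines, 5 rose and 1 fell in Granta-519, and 7 rose and 1 fell in JeKo-1. The background was high. In Granta-519 40.6% of 12668 genes tested were called, 22.4% higher and 18.2% lower, and in JeKo-1 64.6% of 11866, 36.7% higher and 27.8% lower. The median change of the members was 0.20 in Granta-519 and 0.60 in JeKo-1, beside 0.03 and 0.09 over all genes tested. MAX, MXD1, MXD4, MXI1 and MNT rose in both lines, as did 14.8% of the 10653 genes tested in both. In JeKo-1 MXD1 passed the filter through its silenced libraries alone. Its place in the JeKo-1 count and among the genes risen in both lines is therefore not independent of the filter. MXD4 showed the largest change of the network in each line. RPKM sets each gene against the rest of its library. When libraries were scaled to the spike-in RNAs instead, the median over all genes went from 0.03 to 0.73 in Granta-519 and from 0.09 to -0.04 in JeKo-1. The members called were then 8 risen and 0 fallen in Granta-519, and 3 risen (MYC, MXD4 and MXI1) and 0 fallen in JeKo-1. In Granta-519 the count of risen members was 2 without shCtrl 1 or without shCycD1 1.

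**Figure D1:**
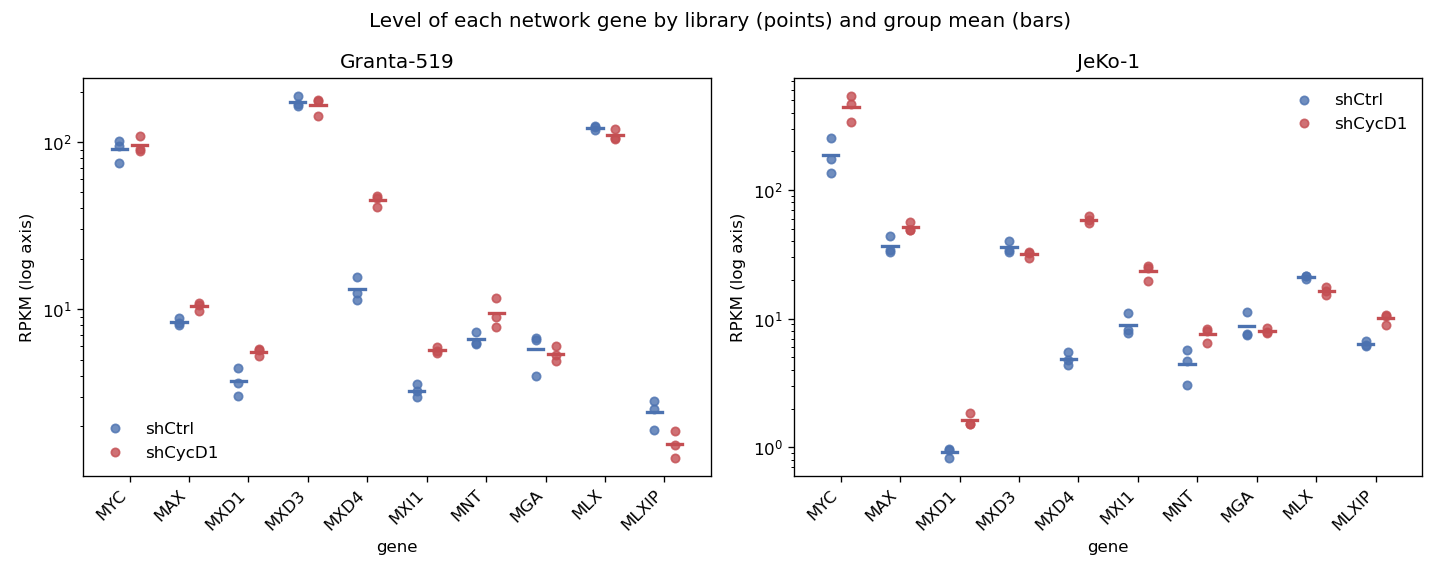
RPKM of each network gene (log axis) in Granta-519 (left) and JeKo-1 (right); points are the 3 libraries of a group and short bars the group mean. The MXD4 libraries of the 2 groups lie far apart in both lines, while those of MYC overlap in Granta-519 and are separate in JeKo-1. Levels may be compared between genes only in the JeKo-1 panel, if its values are per exonic length as inferred, and not between the panels.

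MYC, the growth-promoting member that gives the network its name, rose in JeKo-1. Its RPKM was 252, 135 and 173 in the shCtrl libraries and 533, 336 and 466 in the shCycD1 libraries. All silenced libraries lay above all controls, and in both groups replicate 2 was the lowest and replicate 1 the highest. The means were 187 ± 59.5 (SD, n = 3) and 445 ± 100 RPKM, a log2 change of 1.27 ± 0.25 (limma, adjusted p = 0.00314), and the call held in all 16 alternatives, with values of 0.89 to 1.51. In Granta-519 MYC stood at 101, 75.1 and 95.1 RPKM in shCtrl and at 88.7, 109 and 90.7 in shCycD1. The groups overlapped there, and the change of 0.10 ± 0.13 was not called (adjusted p = 0.603). Its sign turned with library weights (-0.09) and without shCtrl 2 (-0.03), and with spike-in scaling it was called higher at 0.86 (adjusted p = 0.00569). In JeKo-1 the MYC change was exceeded by 5.07% of all genes tested, and in Granta-519 by 43.2%. The difference between the lines, Granta-519 minus JeKo-1, was -1.18 ± 0.31 (limma interaction, adjusted p = 0.0103), beside 41.9% of 10653 genes that differed, 19.3% higher and 22.6% lower. With spike-in scaling the difference was -0.28 and not called (adjusted p = 0.583).

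MAX, the common partner, rose modestly in both lines. In Granta-519 its RPKM was 8.22, 8.05 and 8.86 in shCtrl and 10.9, 9.75 and 10.6 in shCycD1. In JeKo-1 it was 33.0, 43.6 and 34.3 against 48.7, 56.3 and 49.3. The groups did not overlap in either line. Over all genes tested, groups did not overlap for 54.0% in Granta-519 (29.8% with the silenced group higher, 24.2% lower) and for 69.6% in JeKo-1 (39.1% higher, 30.5% lower). The log2 changes were 0.30 ± 0.08 (adjusted p = 0.0257) and 0.48 ± 0.12 (adjusted p = 0.0102, limma). A block for the replicate number ended the Granta-519 call (adjusted p = 0.0515), as did leaving out shCtrl 1 (0.29), shCycD1 1 (0.27) or shCycD1 3 (0.28), and spike-in scaling raised its value to 1.02. In JeKo-1 spike-in scaling ended the call (0.34, adjusted p = 0.436). Granta-519 minus JeKo-1 was -0.18 ± 0.15 (adjusted p = 0.356).

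MXD4, a MAX-dependent repressor, moved furthest. Its RPKM in Granta-519 was 15.5, 12.5 and 11.4 in shCtrl and 46.3, 47.2 and 40.6 in shCycD1, so that every silenced library stood far above the highest control. In JeKo-1 it went from 5.51, 4.79 and 4.36 to 63.0, 54.9 and 58.1 RPKM. Control libraries of a line differed little beside that gap. The means were 13.1 ± 2.13 and 44.7 ± 3.59 RPKM (SD, n = 3) in Granta-519, a log2 change of 1.74 ± 0.13 (limma, adjusted p = 0.000218), and 4.89 ± 0.58 and 58.7 ± 4.07 RPKM in JeKo-1, a log2 change of 3.46 ± 0.10 (adjusted p = 8.64e-07). Only 89 of 12668 genes tested in Granta-519 and 26 of 11866 in JeKo-1 had a higher change. Both calls held in all alternatives run, from 1.51 to 2.48 in Granta-519 and from 2.50 to 3.56 in JeKo-1. The rise was larger in JeKo-1, with a difference of -1.72 ± 0.17 (adjusted p = 1.68e-05). Reading the JeKo-1 values as log2 gave a difference of -0.77 for MXD4 (adjusted p = 0.00294), and spike-in scaling gave -0.85, which was not called (adjusted p = 0.0819).

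MXI1, also known as MXD2, rose in both lines. Its RPKM was 2.98, 3.25 and 3.55 in the Granta-519 controls and 5.94, 5.49 and 5.64 after silencing. In JeKo-1 the controls stood at 7.69, 10.99 and 8.12 and the silenced libraries at 19.8, 25.5 and 25.0. The groups were separate in both lines. The log2 changes were 0.72 ± 0.09 (limma, adjusted p = 0.00122) and 1.35 ± 0.16 (adjusted p = 0.000270), and both calls held in all alternatives run, the Granta-519 value being 1.40 with spike-in scaling. The difference of -0.63 ± 0.19 (adjusted p = 0.0201) was lost when JeKo-1 values were read as log2 (-0.26, adjusted p = 0.208), and its sign turned with spike-in scaling (0.18, adjusted p = 0.712).

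MXD1, the founding MXD repressor, was low in JeKo-1. There it stood at 0.83, 0.97 and 0.95 RPKM in shCtrl and at 1.52, 1.51 and 1.85 in shCycD1. It passed the filter of 1 RPKM in JeKo-1 through the silenced libraries alone, so that its call there is not independent of the filter. The Granta-519 values went from 3.63, 3.04 and 4.43 to 5.73, 5.76 and 5.25 RPKM, and the groups did not overlap. The log2 changes were 0.55 ± 0.13 in Granta-519 (limma, adjusted p = 0.0157) and 0.58 ± 0.11 in JeKo-1 (adjusted p = 0.00235), with a difference of -0.04 ± 0.17 (adjusted p = 0.877). Leaving out shCtrl 1 (0.54) or shCycD1 1 (0.53) ended the Granta-519 call, which stood at 1.22 with spike-in scaling. In JeKo-1 spike-in scaling ended it (0.49, adjusted p = 0.132), the value was 0.34 with quantile normalization, and MXD1 was not tested with that table read as log2.

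MXD3, an MXD repressor that is known to be expressed in cycling cells, did not follow the other MXD genes. In Granta-519 it stood at 168, 187 and 164 RPKM in shCtrl and at 175, 142 and 178 in shCycD1, and the groups overlapped. In JeKo-1 the controls at 40.4, 34.3 and 33.0 RPKM lay above the silenced libraries at 32.5, 32.7 and 29.8 by a narrow gap, as 30.5% of all genes did with the silenced group lower. The changes of -0.07 ± 0.11 and -0.17 ± 0.10 were not called (limma, adjusted p = 0.632 and 0.147). In JeKo-1 a correction for GC content (the share of G and C in the transcript) gave -0.56 (adjusted p = 0.000247), and in Granta-519 the value was 0.02 with library weights, 0.03 without shCycD1 2 and 0.69 with spike-in scaling, where it was called higher (adjusted p = 0.0192).

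The MXD3 values are uncertain, since its annotated exons share 1158 bases with PRELID1 on the opposite strand and 926 bases with RAB24 on the same strand. The library kit keeps the strand, but the sources used here do not say whether counting used it. PRELID1, a gene of mitochondrial lipid transfer, stood at 499, 540 and 450 RPKM in the Granta-519 controls and at 524, 440 and 535 after silencing. The ratio of MXD3 to PRELID1 stayed between 0.324 and 0.364 in all 6 Granta-519 libraries, and between 0.360 and 0.486 in JeKo-1, and only its spread within a line can be read. RAB24, a small GTPase gene, rose in both lines, at 0.39 and 0.89 (limma, adjusted p = 0.0115 and 0.00326), with ratios of MXD3 to it from 1.59 to 2.70 and from 1.32 to 3.51. Both neighbours were chosen after their values were seen, and their part in the MXD3 values was not tested. MXD1 shares 237 exon bases with SNRNP27, a splicing factor gene on the same strand whose change had the opposite sign (-0.17 in Granta-519, adjusted p = 0.148, and -0.38 in JeKo-1, adjusted p = 0.0353).

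MNT, a broadly expressed MAX partner that represses MYC targets, rose in both lines by a call that depended on single libraries. In Granta-519 it stood at 6.19, 7.34 and 6.30 RPKM in shCtrl and at 9.02, 11.7 and 7.88 in shCycD1. In JeKo-1 it stood at 5.68, 3.03 and 4.68 against 8.28, 6.49 and 8.06. The groups did not overlap, although the nearest libraries were close in each line. The log2 changes were 0.48 ± 0.15 (limma, adjusted p = 0.0401) and 0.74 ± 0.21 (adjusted p = 0.0164), with a difference of -0.25 ± 0.28 (adjusted p = 0.484). The Granta-519 call did not survive testing genes of every level (adjusted p = 0.0700), quantile normalization (adjusted p = 0.0559), or the loss of shCtrl 1 (0.44), shCtrl 3 (0.45), shCycD1 1 (0.51) or shCycD1 2 (0.33), and was at 1.20 with spike-in scaling. In JeKo-1 the call ended with the GC correction (0.35, adjusted p = 0.138), with spike-in scaling (0.61, adjusted p = 0.0833) and without shCycD1 1 (0.68) or shCycD1 3 (0.70). MNT shares 1065 exon bases with an antisense RNA, AC006435.1, whose part was not tested.

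MGA, the scaffold of a noncanonical Polycomb complex that holds MAX, was not called in either line. Its RPKM was 6.53, 4.01 and 6.72 in the Granta-519 controls and 4.88, 6.01 and 5.34 after silencing. In JeKo-1 it was 7.55, 7.48 and 11.3 against 7.75, 7.83 and 8.44. In each line 1 control library stood apart from the other two, and the groups overlapped. The changes were -0.06 ± 0.19 and -0.10 ± 0.16 (limma, adjusted p = 0.842 and 0.604), with signs that turned between alternatives.

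MLX, the hub of the Mondo branch, fell in JeKo-1. There it went from 20.2, 21.5 and 21.3 RPKM to 15.2, 17.6 and 16.5, with no overlap and a log2 change of -0.35 ± 0.08 (limma, adjusted p = 0.00815). In Granta-519 the controls stood at 117, 123 and 125 RPKM and the silenced libraries at 105, 104 and 120. The groups overlapped there, and the change of -0.15 ± 0.08 was not called (adjusted p = 0.171). With spike-in scaling MLX was called higher in Granta-519 (0.61, adjusted p = 0.0412) while its fall in JeKo-1 was no longer called (-0.48, adjusted p = 0.232). Its exons share 770 bases with PSMC3IP, a meiotic recombination gene on the opposite strand, chosen after its values were seen. PSMC3IP fell from 66.0 ± 3.09 to 47.8 ± 4.52 RPKM in Granta-519 and from 19.9 ± 1.69 to 7.996 ± 0.28 in JeKo-1 (limma, adjusted p = 0.00659 and 2.73e-05), and its part in the MLX values was not tested.

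MLXIP was the only member called in opposite directions, as were 2.99% of the 10653 genes tested in both lines. Granta-519 libraries went from 2.82, 1.91 and 2.53 RPKM to 1.30, 1.87 and 1.55. In JeKo-1 it went from 6.14, 6.74 and 6.26 to 10.47, 10.6 and 8.96. The groups did not overlap in either line, but in Granta-519 the lowest control and the highest silenced library nearly met. The log2 changes were -0.49 ± 0.16 (limma, adjusted p = 0.0443) and 0.61 ± 0.10 (adjusted p = 0.00123), and the difference was -1.10 ± 0.19 (adjusted p = 0.000845). In Granta-519 the call ended without the filter on low values (adjusted p = 0.0798), with a block for the replicate number (adjusted p = 0.109), without shCtrl 1 (-0.39) or 3 (-0.46), without shCycD1 1 (-0.39) or 3 (-0.49), and with spike-in scaling, where the value was 0.10. The JeKo-1 value was 0.34 with the GC correction (adjusted p = 0.0207) and 0.48 and not called with spike-in scaling (adjusted p = 0.1998), where the difference was not called either (-0.38, adjusted p = 0.403).

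**Figure D2:**
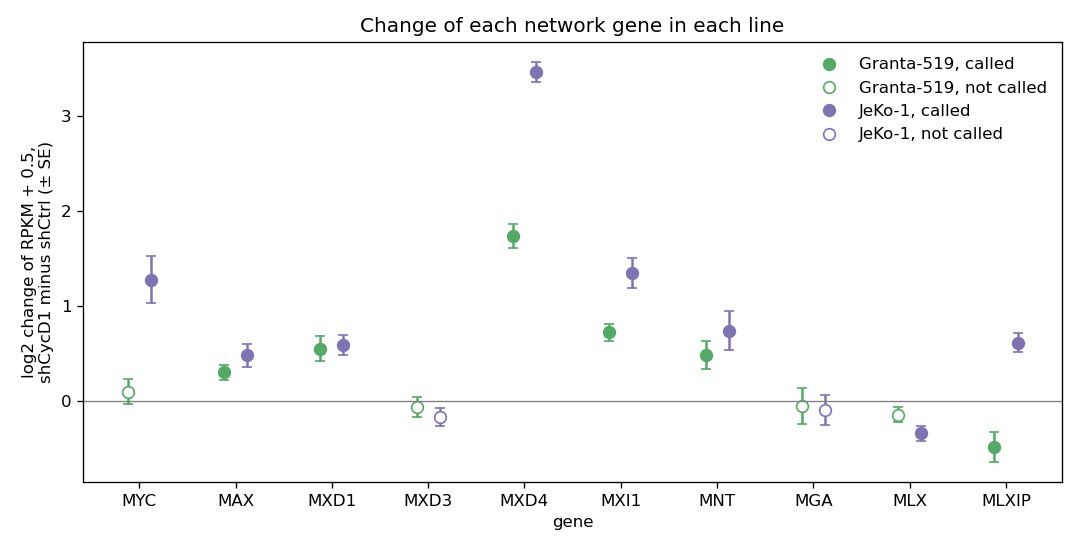
Log2 change (shCycD1 minus shCtrl, RPKM + 0.5) of each network gene, with its standard error, in Granta-519 (green) and JeKo-1 (purple), 3 against 3 libraries each; filled points passed adjusted p under 0.05. MXD4 is highest in both lines at 1.74 and 3.46. The changes of MYC, MXD4, MXI1 and MLXIP differed between the lines, but none of these differences was called with spike-in scaling.

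The balance of MYC RNA to the RNA of its antagonists was followed within each library, where any scaling factor between libraries cancels. The size of a ratio depends on the gene lengths used, so that only its shift between the groups of a line is read. The log2 ratio of MYC to MXD4 was 2.70, 2.58 and 3.06 in the Granta-519 controls and 0.94, 1.21 and 1.16 after silencing. In JeKo-1 it was 5.51, 4.81 and 5.31 against 3.08, 2.61 and 3.003. The libraries did not overlap, and the shift of the mean ratio was -1.68 for Granta-519 and -2.31 for JeKo-1. Relative to MXI1, MYC was lower in all silenced Granta-519 libraries (mean shift -0.71), while in JeKo-1 the ratios overlapped (-0.12). Relative to MXD1 the shift was -0.51 in Granta-519 with no overlap and 0.45 in JeKo-1 with overlap. Relative to MNT it was -0.42 in Granta-519 with overlap and 0.47 in JeKo-1, where all silenced libraries lay above the controls. Relative to MXD3 and MGA, MYC was higher in all silenced JeKo-1 libraries (1.45 and 1.38), and the ratios overlapped in Granta-519 (0.17 and 0.15). The ratios to MXD3 are uncertain, since its exons share bases with PRELID1 and RAB24, whose part was not tested. No test was run on these ratios, and RNA ratios are not protein ratios.

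**Figure D3:**
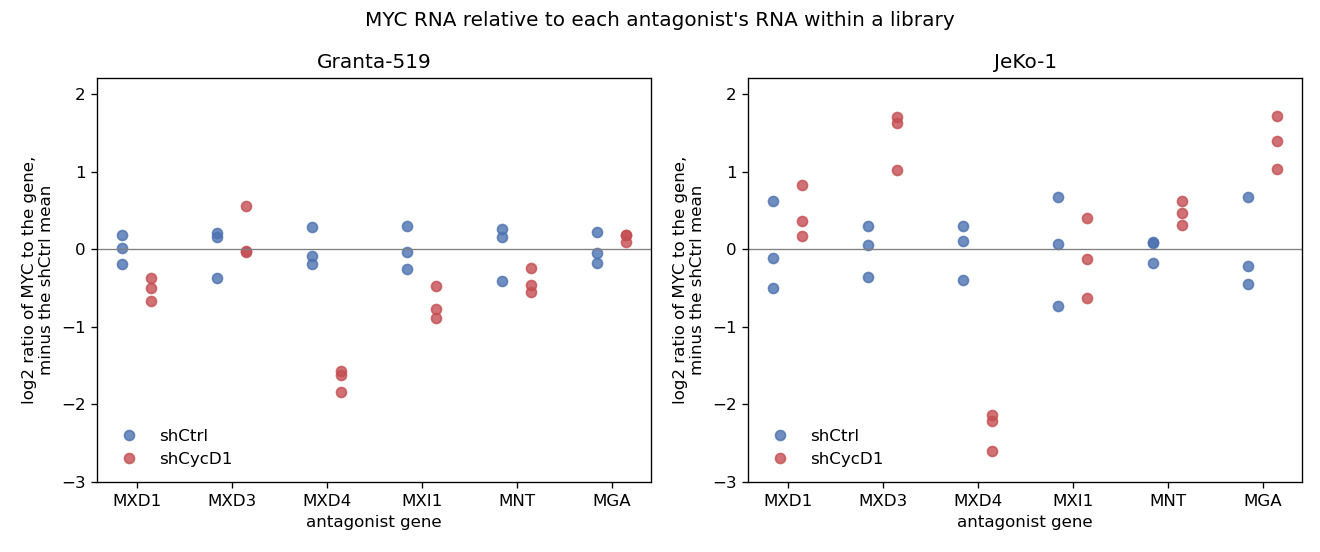
Log2 ratio of MYC RPKM to the RPKM of each antagonist gene in every library, minus the mean of the shCtrl libraries, in Granta-519 (left) and JeKo-1 (right). The MXD4 ratio of every silenced library lies below every control in both lines, while the MXD3 and MGA ratios lie above in JeKo-1. The MXD3 ratios are uncertain, since its exons share bases with PRELID1 and RAB24.

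Levels were compared between genes only in JeKo-1, whose RPKM values were taken to be per exonic length. That length was inferred from how JeKo-1 values differ from Granta-519 values by gene span, and was not tested directly. The order below rests on it. In its controls MYC was the highest at 187 RPKM, followed by MAX (37.0), MXD3 (35.9), MLX (21.0), MXI1 (8.93), MGA (8.77), MLXIP (6.38), MXD4 (4.89), MNT (4.47) and MXD1 (0.92). Libraries of MAX and MXD3, of MXI1 and MGA, and of MXD4 and MNT overlapped, so that the order within these pairs is not resolved. After silencing MXD4 stood in second place at 58.7 RPKM, overlapping MAX at 51.4, and MYC stayed first at 445. MGA (8.004) and MNT (7.61) overlapped in the silenced libraries. MXD3 shares exon bases with PRELID1 and RAB24, and MLX with PSMC3IP, and the part of these neighbours in the levels was not tested. The sizes of the levels also rest on reading the JeKo-1 values as natural log, which is inferred.

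Over all genes tested in both lines, the 3 whose values followed MYC most closely were ARAF, a RAF family kinase (mean r of 0.98 over the lines), LRP10, a lipoprotein receptor relative (0.98), and TUBGCP6, a gamma-tubulin complex component (0.97). The measure was Pearson's r of log2 values over the 6 libraries of each line, averaged, among 10652 genes, and libraries of a line share their group means. ARAF, LRP10 and TUBGCP6 rose in JeKo-1 by 0.51, 0.97 and 0.93 (limma, adjusted p = 0.00322, 0.000196 and 0.00243) and were not called in Granta-519 (0.10, 0.19 and 0.16). Within the network the mean was highest for MXD1 (r of 0.54 and 0.82 in the 2 lines) and lowest for MLX (-0.47 and -0.97). The lines differed: r was 0.32 in Granta-519 against 0.97 in JeKo-1 for MNT, and 0.85 and -0.25 for MGA, which was the member most like MYC in Granta-519.

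Many genes of a list that MYC is known to activate were called lower in each line. The list was chosen with earlier results of these data known, so its counts are a description and not independent support. Among 53 such genes in Granta-519, 28 fell and 1 rose (median -0.27), beside 18.2% and 22.4% of all genes tested (median 0.03). Among 52 in JeKo-1, 35 fell and 0 rose (median -0.41), beside 27.8% and 36.7% of all genes tested (median 0.09). In Granta-519 the direction turned with spike-in scaling, where 20 rose and 0 fell (median 0.50, against 0.73 for all genes). With that scaling 15 fell and 0 rose in JeKo-1 (median -0.55, against -0.04 for all genes). Without shCycD1 1, 18 fell in Granta-519. Of the 52 genes tested in both lines, 22 fell in both, beside 13.1% of all 10653 genes tested in both. HSPE1, a mitochondrial chaperonin, went from 248 to 110 RPKM in Granta-519 (log2 change -1.16, adjusted p = 0.000411) and from 387 to 63.2 in JeKo-1 (-2.61, adjusted p = 2.21e-06, limma). SHMT1, an enzyme of one-carbon metabolism, was at -1.15 in Granta-519 and -1.31 in JeKo-1. CDC25A, a phosphatase that activates cyclin-dependent kinases, was at -1.10 and -2.78, and the lactate dehydrogenase gene LDHA at -0.70 and -1.37, all called. None of these 4 was called in Granta-519 with spike-in scaling (-0.50 to 0.07). The 1 riser in Granta-519 was the cyclin gene CCND2 (1.64), which was under the filter in JeKo-1. The list also holds cell cycle genes, such as CDC25A.

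Of 9 tested genes that MYC is known to repress, 3 rose and 3 fell in Granta-519 (median -0.0011), and 4 rose and 3 fell in JeKo-1 (median -0.11). With 9 genes these counts are close to what the shares of all genes give (22.4% and 18.2%, and 36.7% and 27.8%), and nothing is read from them about the list. The antiproliferative genes BTG1 and BTG2 rose, with changes of 0.81 and 0.66 in Granta-519 and of 0.98 and 2.002 in JeKo-1. NDRG1, a stress response gene, rose by 0.60 in Granta-519 and 1.38 in JeKo-1. It owed its place among tested genes to the silenced libraries: all 3 JeKo-1 controls and 2 of the 3 Granta-519 controls were under 1 RPKM. The cyclin-dependent kinase inhibitor genes CDKN1A and CDKN2C fell, at -0.52 and -0.55 in Granta-519 and at -1.79 and -0.26 in JeKo-1 (limma, all called). With spike-in scaling 6 of the 9 rose and 0 fell in Granta-519, where CDKN1A and CDKN2C stood at 0.25 and 0.21 and were not called, and 3 rose and 1 fell in JeKo-1. The NDRG1 call in Granta-519 was lost without any 1 library other than shCycD1 3 (0.47 to 0.68), with library weights (0.39, adjusted p = 0.0513), without the filter (adjusted p = 0.0615) and after quantile normalization (0.50, adjusted p = 0.0529). That of CDKN2C in JeKo-1 was lost without any 1 library other than shCycD1 3 (-0.18 to -0.28), with quantile normalization (-0.19) and with spike-in scaling (-0.39).

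Of the genes that MLX and MLXIP are known to control, TXNIP, an inhibitor of glucose uptake, fell in Granta-519, at -0.41 (adjusted p = 0.00383), and had a change of 0.07 in JeKo-1 (adjusted p = 0.801). ARRDC4, a related arrestin, fell in both lines, at -0.71 and -0.82 (adjusted p = 0.00442 and 0.000589, limma). With spike-in scaling the Granta-519 values were 0.35 and 0.02, neither called. ARRDC4 in JeKo-1 stood at 1.82 and 0.82 RPKM and passed the filter through its controls.

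Corepressors and coactivators are read against all genes tested, of which 22.4% rose and 18.2% fell in Granta-519 and 36.7% and 27.8% in JeKo-1. Of 17 genes of the SIN3 and NCOR corepressors, 8 fell and 0 rose in Granta-519, and 9 fell and 2 rose in JeKo-1, with medians of -0.20 and -0.23. RBBP7 and SAP30, subunits of the SIN3 complex, fell, at -0.78 and -0.62 in Granta-519 and at -0.95 and -1.13 in JeKo-1. SIN3B, a SIN3 scaffold that MXD proteins bind, rose in JeKo-1 from 2.42 to 5.60 RPKM (1.06, limma, adjusted p = 5.68e-05). Of 17 MYC coactivators, 7 fell and 1 rose in Granta-519 and 5 fell and 3 rose in JeKo-1, where the share that fell was near that of all genes. WDR5, a MYC cofactor on chromatin that is also on the list of MGA partners, fell, at -1.01 and -1.18, as did the chromatin remodelling subunit ACTL6A, at -0.63 and -0.86. With spike-in scaling none of RBBP7, SAP30, WDR5 and ACTL6A was called in Granta-519 (-0.26 to 0.12). With spike-in scaling 7 corepressors and 4 coactivators rose and 0 fell in Granta-519, and in JeKo-1 2 corepressors rose and 4 fell and 0 coactivators rose and 2 fell. The coactivators fallen in Granta-519 numbered 4 without shCtrl 1 or shCycD1 1 and 12 with library weights, and with the GC correction 5 corepressors and 0 coactivators rose in JeKo-1.

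Among 13 genes of the MGA complex, 6 fell and 3 rose in Granta-519, and 8 fell and 3 rose in JeKo-1. Of all genes tested, 18.2% fell and 22.4% rose in Granta-519, and 27.8% fell and 36.7% rose in JeKo-1. The share of the list that rose in Granta-519 was near that of all genes. TFDP1, the dimer partner of E2F factors, fell, at -1.17 and -1.08, and so did PCGF6, the Polycomb ring finger of the complex, at -0.65 and -0.98, while TFDP2, a relative of TFDP1, rose by 0.34 in Granta-519 and 1.11 in JeKo-1. The Granta-519 call of TFDP2 was lost without shCtrl 1 (0.32, adjusted p = 0.0589) or shCycD1 3 (0.33, adjusted p = 0.0558). With spike-in scaling 7 rose and 0 fell in Granta-519, and 1 rose and 5 fell in JeKo-1. Of the risers 1 was left in Granta-519 without shCtrl 1 or shCycD1 3, and in JeKo-1 without shCtrl 2 or shCycD1 2.

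Of 17 genes that act on the stability of the MYC protein, 4 rose and 6 fell in Granta-519, and 6 rose and 7 fell in JeKo-1. The share that rose was near that of all genes in both lines (22.4% and 36.7%), and 18.2% and 27.8% of all genes fell. With spike-in scaling 8 rose and 0 fell in Granta-519, and 2 rose and 5 fell in JeKo-1, while 2 rose in Granta-519 without shCtrl 1, shCtrl 3, shCycD1 1 or shCycD1 2. FBXO32, a ubiquitin ligase component, rose from 1.44 to 5.11 RPKM and from 0.63 to 2.27 (1.54 and 1.29, limma, adjusted p = 0.000219 and 0.000224). In JeKo-1 FBXO32 passed the filter through the silenced libraries alone, so that its call there is not independent of the filter. FBXW7, the ligase component that recognises phosphorylated MYC, rose by 0.68 in Granta-519 and 0.32 in JeKo-1, the latter not called with spike-in scaling (0.19, adjusted p = 0.675). The kinase gene PIM2 rose by 0.33 and 1.43, the former not called without shCtrl 1, shCtrl 3, shCycD1 1 or shCycD1 2 (0.28 to 0.35). AURKA, a mitotic kinase, fell, at -1.22 and -2.91, as did KIAA1524, which encodes the phosphatase inhibitor CIP2A (-1.04 and -2.58), and the phosphatase inhibitor gene SET (-0.87 and -1.44). With spike-in scaling TFDP1, PCGF6, AURKA, KIAA1524 and SET were not called in Granta-519 (-0.47 to -0.09).

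**Figure D4:**
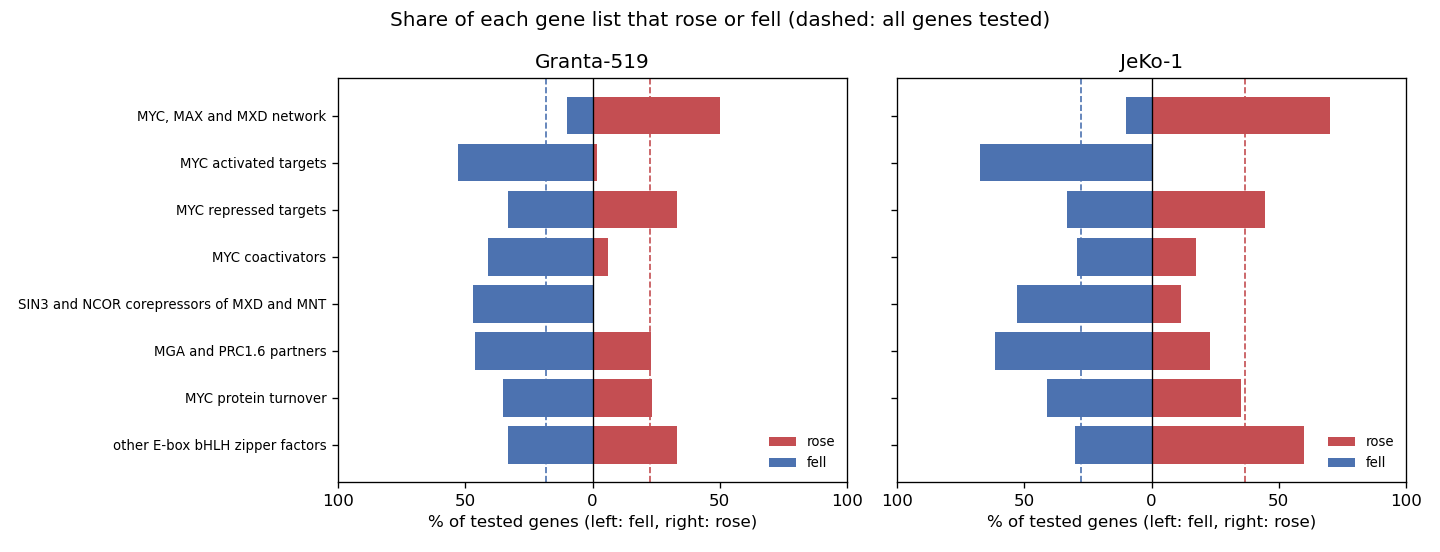
Percent of the tested genes of each list that rose (right, red) or fell (left, blue) after cyclin D1 silencing in each line, at adjusted p under 0.05; dashed lines give the same percent over all genes tested, 22.4 and 18.2 in Granta-519 and 36.7 and 27.8 in JeKo-1. Of the lists drawn, genes activated by MYC extend furthest to the left in both panels.

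Of the MYC relatives outside the 10 genes, MYCL1 rose in Granta-519 from 5.69 to 9.25 RPKM (0.67, limma, adjusted p = 0.00829) and stood at 0.83 and 0.91 RPKM in JeKo-1, under the filter. MYCN and MLXIPL were below 0.2 RPKM in every group mean of both lines. MYCBP, a MYC-binding protein gene, had a Granta-519 change of 0.09 (adjusted p = 0.422) and fell in JeKo-1, at -0.70 (limma, adjusted p = 0.00087). MYCBP2, a large ubiquitin ligase, was at 0.13 and 0.12, and ZBTB17 (MIZ1), through which MYC represses, was at 0.02 and 0.14, neither called in either line.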

How the data were processed

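RNA of 12 libraries was sequenced, 3 in each of the 4 groups, which were read from the titles of the samples. For each line the authors deposited a table of RPKM on a log scale. The submitters' processing notes list FastQC, TopHat2 2.1.1, limma 3.9, GRCh37 and hg19 without saying how each was used. No counter, annotation or log base is named in the sources used here.

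Deposited numbers were taken as natural log of RPKM + 1. For Granta-519, low values times genomic span came out as whole multiples of 1 step (tolerance 0.1) for 76.0 to 79.1% of values per library with this base, and for 60.4 to 62.7% with log2. The JeKo-1 base was inferred, not settled: the SD of 55 spike-ins, relative to Granta-519, was 0.97 with the natural log and 0.72 with log2. Gene lengths differ between the tables. Genes binned by span over transcript length had a median Granta-519 to JeKo-1 ratio (log2) of 1.72 in the lowest bin and -1.68 in the highest. Levels were therefore not compared between tables, nor between genes in Granta-519, and ratios of 2 genes were read only across the libraries of 1 line.

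Each line was fitted separately in limma 3.58.1 (R 4.3.3), using log2(RPKM + 0.5) and empirical Bayes moderation with an intensity trend. A gene was tested if 3 of its 6 libraries or more reached 1 RPKM, and was called at a Benjamini-Hochberg adjusted p under 0.05 over all genes tested. A joint fit of the 12 libraries tested the difference between lines. The fits were tested on simulated data. Alternatives were pseudocounts of 0.1 and 1, no filter, quantile normalization, spike-in scaling, library weights, a GC correction, a replicate block, JeKo-1 values as log2, and leaving out each library. Members and lists were chosen with earlier results of these data known. Named genes are all members, all genes of lists with up to 7 genes, the 3 largest called rises and falls of longer lists in each line (some are printed), and the 3 genes most like MYC. Exon overlaps are from GENCODE annotation. Some genes of the marker and corepressor lists are not reported here by name.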

Additional observations from a re-analysis of the deposited data

Results flagged for a closer look

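The changes of 4 network genes differed between the lines by a test of the difference itself (limma interaction, adjusted p under 0.05). For MYC the difference, Granta-519 minus JeKo-1, was -1.18 (adjusted p = 0.0103), with all JeKo-1 silenced libraries above their controls and overlapping groups in Granta-519. For MXD4 it was -1.72 (adjusted p = 1.68e-05), a larger rise in JeKo-1. For MXI1 it was -0.63 (adjusted p = 0.0201), and for MLXIP it was -1.10 (adjusted p = 0.000845), where the lines moved in opposite directions. Under the same test 41.9% of 10653 genes differed. The change of the silenced gene CCND1 also differed by this test (0.55, adjusted p = 0.0306), with a deeper fall in JeKo-1. Its difference ran from -0.16 to 1.45 under alternatives, and its part in the differences of the network genes was not tested. The calls of all 4 network genes were lost with spike-in scaling, and that of MXI1 also when JeKo-1 values were read as log2.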

How the results depend on the processing

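Of 528 member values under alternatives, 454 kept their direction and side of the threshold, 32 lost the call, 10 gained one and 32 changed sign; the cause was not tested. Spike-in scaling moved most: over all genes 7875 were higher and 160 lower in Granta-519 (2840 and 2303 otherwise), 1707 and 1853 in JeKo-1 (4357 and 3303), and 4383 and 142 for the difference (2053 and 2410). With library weights 3579 were lower in Granta-519. Members called with spike-in scaling were 8 higher and 0 lower for Granta-519, 3 and 0 for JeKo-1, and 2 and 0 for the difference.

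In Granta-519, 0 members were lower without the filter and with the replicate block, alone or with GC correction. The GC correction, alone or with the block, left 2 lower members in JeKo-1. For the difference 1 member was higher with GC correction, library weights or quantile normalization, and 2 with block and GC correction. Leaving out 1 library gave 2 to 5 higher and 0 to 1 lower members in Granta-519.

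Sign changes in Granta-519 were MYC -0.094 and MXD3 0.0155 with library weights, and, with spike-in scaling, MXD3 0.69, MGA 0.63, MLX 0.61 and MLXIP 0.10. In JeKo-1 MGA was at 0.15 with GC correction, alone or with the block. For the difference, spike-in scaling gave MAX 0.68, MXD1 0.73, MXI1 0.18 and MNT 0.59, GC correction, alone or with the block, gave MNT 0.12 and MGA -0.18, library weights gave MGA -0.13, and MXD1 was 0.043 with a pseudocount of 1 and 0.17 with quantile normalization. Leaving out 1 library gave, in Granta-519, MYC -0.031 to 0.18, MXD3 -0.13 to 0.032 and MGA -0.27 to 0.064, in JeKo-1 MGA -0.20 to 0.0845, and for the difference MXD1 -0.15 to 0.085 and MGA -0.17 to 0.16.

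Deviations of same-numbered libraries correlated at 0.0055, -0.12 and 0.03 in Granta-519. The JeKo-1 values were 0.19, 0.09 and 0.10, and there each library correlated best with its own number. The numbers were not taken as pairs. With the replicate block the members called higher and lower were 4 and 0 for Granta-519, 7 and 1 for JeKo-1. Depth is unknown for JeKo-1, which limits what can be said of low genes such as MXD1.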

Other observations

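Among 9 other helix-loop-helix zipper factors that bind E-boxes and were tested in Granta-519, 3 rose and 3 fell, beside 22.4% and 18.2% of all genes. Among 10 in JeKo-1, 6 rose and 3 fell, beside 36.7% and 27.8%. TFE3 and TFEB, activators of lysosome genes, rose, with changes of 0.41 and 0.36 in Granta-519 and 0.79 and 0.52 in JeKo-1. The circadian repressor gene BHLHE40 rose from 66.2 to 114 RPKM in Granta-519 and from 27.5 to 54.2 in JeKo-1 (0.75 and 1.01, limma, adjusted p = 0.0103 and 0.0166), while its relative BHLHE41 fell, at -0.33 and -1.57. SREBF1, a regulator of lipid synthesis, fell, at -0.94 and -0.56. TFAP4, itself a MYC target, fell in Granta-519, at -0.74, and was at 0.08 in JeKo-1 (adjusted p = 0.460). With spike-in scaling 6 rose and 0 fell in Granta-519, and 1 rose and 3 fell in JeKo-1. In JeKo-1 the BHLHE40 call was lost without shCtrl 3 (0.92) or shCycD1 1 (0.80), and that of SREBF1 without shCtrl 1 (-0.45), shCycD1 2 (-0.52) or shCycD1 3 (-0.45). The TFEB call in JeKo-1 was lost with the GC correction (0.25, adjusted p = 0.110), with spike-in scaling (0.38, adjusted p = 0.378) and without shCycD1 1 (0.47) or shCycD1 3 (0.46). With spike-in scaling TFE3 in JeKo-1 (0.66) and SREBF1 (-0.24), TFAP4 (-0.02) and BHLHE41 (0.42) in Granta-519 were not called either. Without shCycD1 1, 3 rose in JeKo-1, and without shCycD1 3, 1 fell there.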
